A study of Mus musculus with 16 samples.

Results

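The 8 genes described here carry out iron storage (Fth1 and Ftl1), iron transport (Trf, Tfrc, Slc40a1, Slc11a2 and Cp) and the control of iron genes (Ireb2). They were chosen by symbol, as 8 of the 30389 genes in the count tables of a single-cell study of the mouse neocortex. THY-Tau22 mice, heterozygous for a human tau transgene that carries the G272V and P301S mutations and is driven in neurons by the Thy1.2 promoter, were compared with wild-type (WT) littermates. All mice were 17 months old and on a background maintained with C57Bl6/J females. The labels gave 4 males of each genotype, 5 THY-Tau22 females and 3 WT females, with 1 Drop-seq library for each. An identical animal number stands in the title of a THY-Tau22 female (replicate 1) and in that of a WT male (replicate 1), for a reason not given. Drop-seq tags each captured transcript with the barcode of its droplet and with a random label, the unique molecular identifier (UMI), and counts copies that share both tags as 1 molecule.

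Ferritin, a shell of heavy chains (Fth1) and light chains (Ftl1), holds iron inside the cell, and the heavy chain oxidises the iron as it enters. Transferrin (Trf) carries iron in extracellular fluid, and the transferrin receptor (Tfrc) takes it up, also across the endothelium of brain vessels. The transporter encoded by Slc11a2 moves iron out of endosomes, ferroportin (Slc40a1) exports it from the cell, and ceruloplasmin (Cp), a copper enzyme, oxidises exported iron. Ireb2 encodes iron regulatory protein 2, which binds a hairpin in certain mRNAs, the iron-responsive element, when iron is scarce. Binding before the coding region blocks translation of the ferritins and ferroportin, and binding after the coding region of Tfrc keeps its mRNA stable, so that protein can change where mRNA counts do not.

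The elements of 4 of the genes are shown because they set which members answer to Ireb2 through translation and which through mRNA level. They were read from GENCODE M21 transcripts on the mm10 build as C, any 5 bases, CAGTGN and any 5 bases on the transcript strand, with both runs of 5 bases able to pair, G with T included. The capitals mark the 6 bases of the loop.
Fth1, 5′ UTR, chr19:9982731-9982760, plus strand: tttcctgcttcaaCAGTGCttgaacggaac
Ftl1, 5′ UTR, chr7:45459779-45459808, minus strand: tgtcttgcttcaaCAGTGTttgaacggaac
Slc40a1, 5′ UTR, chr1:45925465-45925494, minus strand: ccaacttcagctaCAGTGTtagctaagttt
Tfrc, 3′ UTR, chr16:32631218-32631247, plus strand: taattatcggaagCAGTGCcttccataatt
Tfrc, 3′ UTR, chr16:32631597-32631626, plus strand: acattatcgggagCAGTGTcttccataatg
Tfrc, 3′ UTR, chr16:32631662-32631691, plus strand: tctatatcggagaCAGTGAtctccatatgt
Tfrc, 3′ UTR, chr16:32631709-32631738, plus strand: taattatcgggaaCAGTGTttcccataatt
A 5′ UTR match was found in 31 of 20899 genes (0.148%), and a 3′ UTR match in 129 of 21685 genes (0.595%). Tfrc was the 1 gene with at least 3 matches after the coding region. These letters were not found in the UTRs of Trf, Slc11a2, Cp or Ireb2, which says only that this pattern is not in those sequences.

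The 16 tables held 1041675 to 2237505 UMIs each, and 28530 of 48000 barcodes with 200 to 7000 detected genes were kept, 1121 to 2526 per library. Of 3000 barcodes each, 2952 were common to WT male replicate 3 and a THY-Tau22 male (replicate 4), against 3 to 12 in any other pair of tables. This library, deposited under both genotypes, was left out of the genotype comparisons. They used 14 libraries, from 3 males of each genotype, 3 WT females and 5 THY-Tau22 females. Levels by cell class count that library once, as WT male replicate 3, and so use 15 libraries. Levels are CPM, the UMIs of a gene per 1000000 UMIs, from sums per library over all kept barcodes or within a class, and fold changes come from edgeR with TMM scaling, without which the male median of all genes moved to 0.20 on the log2 scale. Classes were rebuilt by clustering without the 8 genes and named from lists of marker genes, with 7 to 12 markers enriched in each named cluster. THY-Tau22 male replicate 3 stood apart, with 398 of its 1393 kept barcodes in unnamed clusters (29 to 85 barcodes in the other tables), 20 oligodendrocyte precursor (OPC)-like cells and 1047 UMIs per cell (526 to 913 in the others). Without it, 911 of 11866 genes had an unadjusted p under 0.05 between male genotypes, against 1792 of 11643 with it. The largest microglia-like cluster was led by the immune genes Cd83, Ccl4, Plek, Casp4, Il1a, Nfkbiz and Ccl3.

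None of the 8 genes was called different between genotypes over all kept barcodes. In males, Fth1 had the largest difference, 2.36-fold higher in THY-Tau22, and Slc40a1 was 1.61-fold lower. In females, the Fth1 difference was small and of opposite sign. Within cell classes, the higher Fth1 of THY-Tau22 males was found in astrocyte-like, microglia-like, oligodendrocyte-like, endothelial-like and neuron-like cells, and it also fell short of the call. Across libraries, Fth1 was lower where the share of mitochondrial ribosomal RNA was higher, a close inverse relation in both sexes and both genotypes.

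The genotype comparison asked whether the members differ with the tau transgene in each sex, averaged over both sexes, and between the sexes (the male minus the female difference). By edgeR's quasi-likelihood test with Benjamini-Hochberg adjustment over 11643 genes, 0 of 8 members were called in each of these 4 comparisons at an adjusted p under 0.05 and a log2 difference of at least 0.5, and 0 of all genes (0%). DESeq2 left out the adjusted p of some genes. It called 0 of the 4 members with one in males (0.129% of all genes called), 0 of 8 in females and over both sexes, and 0 of 2 between the sexes (0% each). These shares of all genes are taken over genes with and without an adjusted p. At an unadjusted p under 0.05, 2 members passed in males (Fth1 higher and Slc40a1 lower in THY-Tau22, where 15.4% of all genes passed, 9.04% higher and 6.36% lower), 0 in females (1.74%), 1 over both sexes (Slc40a1, against 4.22%) and 1 in the comparison of the sexes (Fth1, against 12.7%). In males, the CPM of the genotypes did not overlap for 5 members. Fth1, Ftl1, Trf and Tfrc were higher in all THY-Tau22 libraries (22.4% of all genes), and Slc40a1 was lower in all of them (6.68%). In females, 0 members were separated in this way, against 0.679% of all genes higher and 0.507% lower. The sum over all barcodes cannot tell fewer cells of a type from less RNA per cell.

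**Figure D1:**
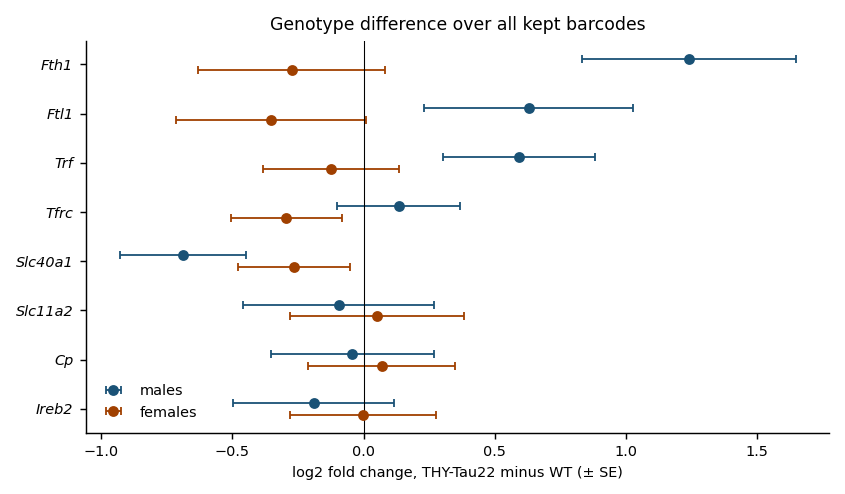
Log2 fold change of each iron gene between THY-Tau22 and WT over all kept barcodes (x axis), with standard errors from edgeR, in males and in females. Fth1 lies at 1.24 in males and -0.27 in females, Slc40a1 at -0.69 and -0.27, and Slc11a2, Cp and Ireb2 lie near 0 in both sexes.

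Fth1 (chr19:9980598-9985098, plus strand) encodes the ferritin heavy chain, and was counted 62087 times in 15 libraries. By class it was highest in oligodendrocyte-like cells, at 11091 ± 4929 CPM (SD, n = 15 libraries), then in macrophage-like cells, at 5883 ± 3315 (n = 14), and in microglia-like cells, at 2541 ± 1141 (n = 15). The order of these 3 classes was the same in 14 of 14 libraries. Ependymal-like cells (2068 ± 1083, n = 4) and fibroblast-like cells (1894 ± 815, n = 9) followed. Below them, mural-like cells lay at 1389 ± 595 CPM, astrocyte-like cells at 1057 ± 578, neuron-like cells at 1054 ± 824, endothelial-like cells at 820.5 ± 379 and OPC-like cells at 720.1 ± 408 (n = 15 each). None of these neighbours differed beyond its spread, although mural-like cells exceeded astrocyte-like cells in 13 of 15 libraries. Oligodendrocyte-like cells held 61.4% of the Fth1 UMIs and 18.7% of all UMIs. An Fth1 UMI was present in 96.2% of oligodendrocyte-like cells (95% Clopper-Pearson interval 95.6% to 96.7%, covering counting error only) and in 22.4% of OPC-like cells (20.1% to 24.8%), with median depths of 587 and 590.5 UMIs per cell.

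**Figure D2:**
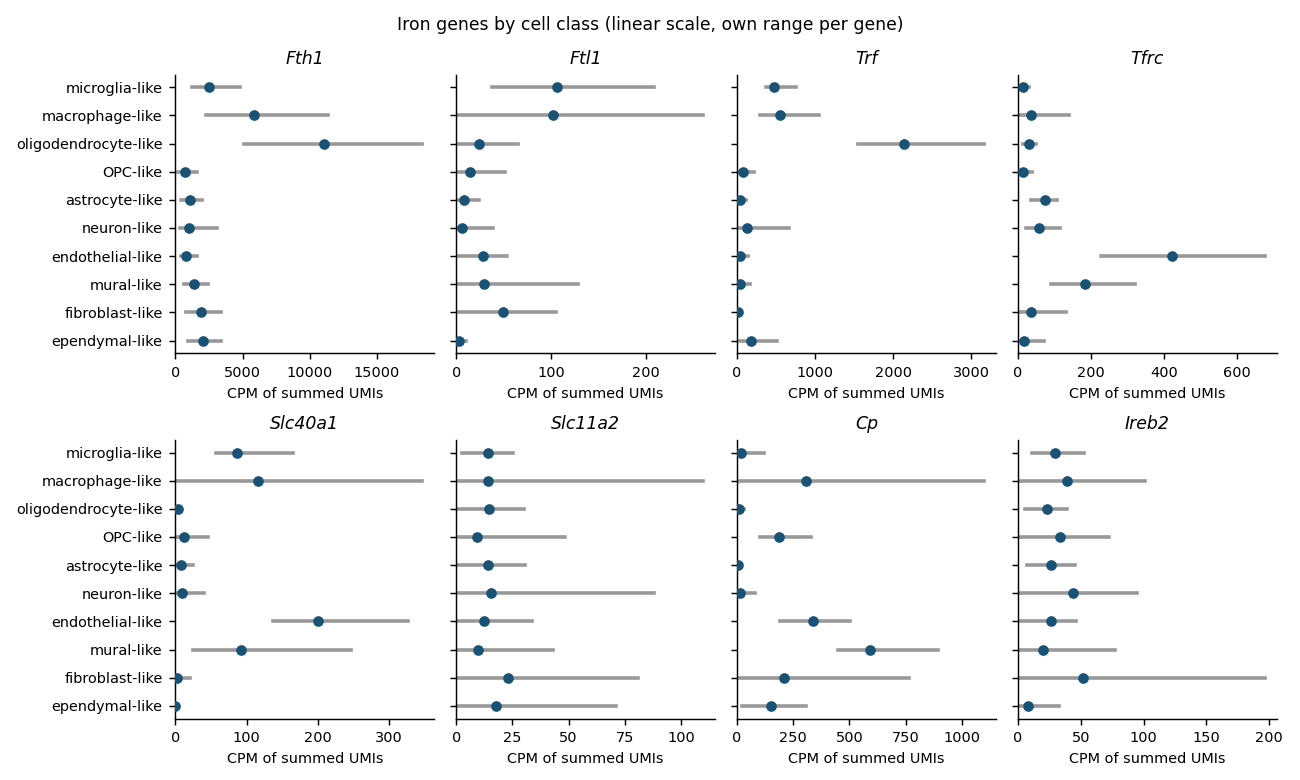
CPM of each iron gene (x axis) in 10 cell classes (y axis), where each dot is the mean over up to 15 libraries and each bar runs from the lowest to the highest library, on a linear x axis from 0 with its own range for each gene. Fth1 and Trf are highest in oligodendrocyte-like cells, Tfrc and Slc40a1 in endothelial-like cells, Cp in mural-like cells, and Ftl1 in microglia-like and macrophage-like cells.

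Over all barcodes, Fth1 lay at 1518, 2502 and 1766 CPM in WT male replicates 1, 2 and 4, and at 6088, 3592 and 5742 CPM in THY-Tau22 male replicates 1 to 3. In WT females it lay at 5808, 5466.5 and 1491 CPM, and in THY-Tau22 females at 2501, 2208, 3246, 6698 and 2272 CPM in replicates 1 to 5. The male groups did not overlap, and both female groups spanned nearly the whole range. In males the log2 difference was 1.24 ± 0.41 (SE, edgeR adjusted p = 0.234), and in females it was -0.27 ± 0.36 (adjusted p = 1.00). Averaged over both sexes it was 0.48 ± 0.27 (adjusted p = 0.946), and the male difference exceeded the female one by 1.51 ± 0.54 (adjusted p = 0.297). The shared library lay at 2426 CPM under its WT label and at 2286 CPM under its THY-Tau22 label. With it kept as WT the male difference was 1.16, and with it kept as THY-Tau22 it was 1.04. Without the filter on low counts, over 28779 genes, the male difference of 1.23 passed the call (edgeR adjusted p = 0.0072), as did 1.03% of all genes. In the comparison of the sexes it passed too (1.47, adjusted p = 0.033), with 0.632% of all genes. Without THY-Tau22 male replicate 3 the male difference was 1.20 ± 0.45 (adjusted p = 0.649).

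The comparison of the sexes depended on single libraries. Without WT female replicate 3, the lowest of the WT females, the male minus female difference was 1.88 and passed the call (edgeR adjusted p = 0.018), as did 9.56% of all genes (1142 of 11945). Without the pair of libraries whose titles carry the token MB22, WT female replicate 3 and THY-Tau22 female replicate 5, it was 1.77 (adjusted p = 0.031), and 6.04% of all genes (711 of 11763) were called. What the token marks was not stated. THY-Tau22 female replicate 4, the highest of the THY-Tau22 females, was also the library with the most blood genes, at 2482 CPM against at most 343 CPM in the others. The part of blood RNA in the result was not tested.

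**Figure D3:**
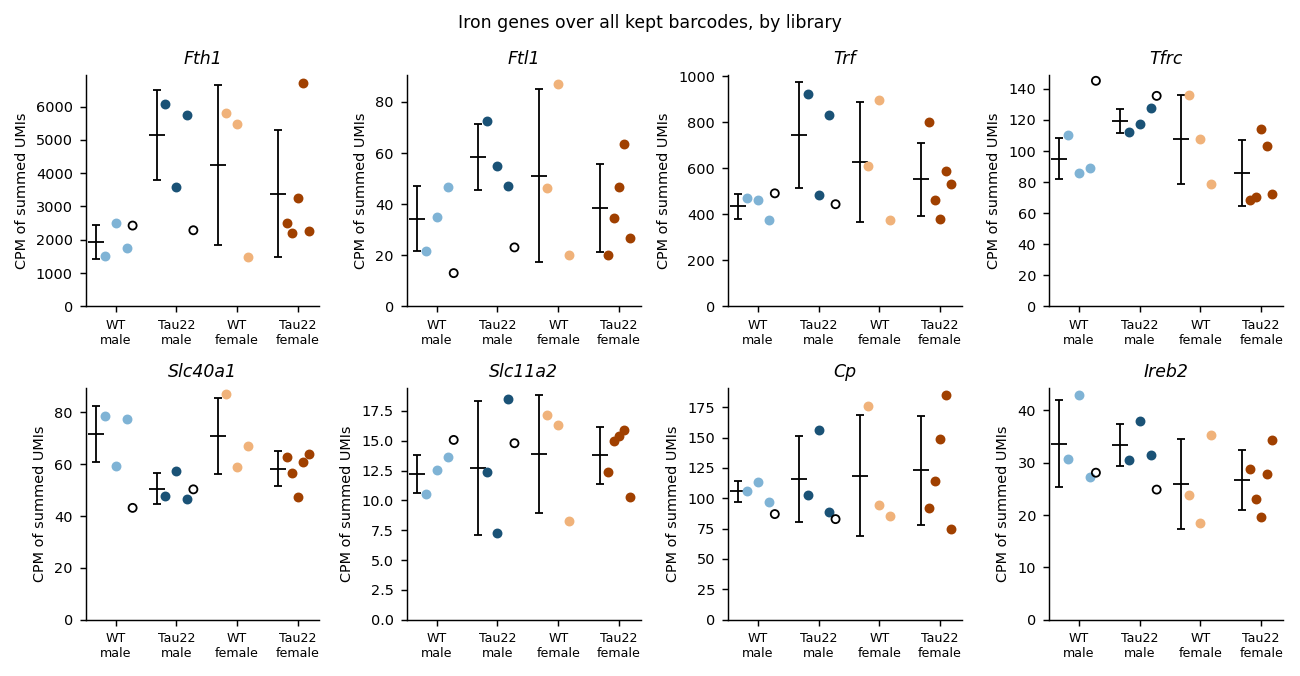
CPM of each iron gene over all kept barcodes (y axis, linear from 0) in the 14 libraries of the comparison, with 1 point per library and the mean and SD of each group, and as open circles the 2 tables of the library under both labels. For Fth1 the THY-Tau22 males lie at 3592 CPM and above and the WT males at 2502 CPM and below, and the female groups overlap.

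Fth1 was tested in all 6 of the larger classes, and of the 48 pairs of a member and a class, 18 passed the filter on low counts. None of the 18 was called in any comparison by edgeR. The background was 29 of 5028 genes called in microglia-like cells of males (0.577%), 3 of 4374 in oligodendrocyte-like cells (0.0686%), and 0% in the other 4 classes. In females it was 0.0229% in oligodendrocyte-like cells, over both sexes 0.0199% in microglia-like and 0.0816% in OPC-like cells, between the sexes 0.251% in oligodendrocyte-like cells, and 0% elsewhere. DESeq2 called 0 of the 12 pairs with an adjusted p in males, 0 of 18 in females and over both sexes, and 0 of 11 between the sexes. Its background is the share of all tested genes, with or without an adjusted p. In males it was 1.87% in microglia-like, 0.0735% in astrocyte-like, 0.457% in oligodendrocyte-like and 0.289% in endothelial-like cells. Between the sexes it was 0.497%, 0.147%, 0.48% and 0.26% in the same classes, and it was 0% in the others. At an unadjusted p under 0.05, 7 pairs passed in males (6 higher and 1 lower in THY-Tau22), 1 in females, 3 over both sexes and 6 in the comparison of the sexes. Fth1 made up 5 of the 7 in males, 1 of 1 in females, 2 of the 3 over both sexes and 5 of the 6 between the sexes. The other pairs were Ftl1 and Slc40a1 in microglia-like cells. Of all genes tested in microglia-like, astrocyte-like, oligodendrocyte-like, OPC-like, endothelial-like and neuron-like cells, in that order, 17.2%, 17.8%, 17.2%, 9.71%, 15.8% and 6.93% passed the same limit in males. The shares were 2.8%, 2.99%, 3.13%, 3.34%, 2.57% and 3.09% in females, 6.8%, 4.39%, 4.82%, 6.85%, 4.91% and 5.34% over both sexes, and 14.5%, 17.9%, 16.4%, 6.93%, 14.1% and 5.71% between the sexes. Without THY-Tau22 male replicate 3 the male Fth1 difference was 0.87 in microglia-like, 1.17 in astrocyte-like, 0.83 in oligodendrocyte-like, 0.72 in endothelial-like and 1.16 in neuron-like cells.

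In astrocyte-like cells, Fth1 lay at 418, 661 and 513 CPM in WT males and at 1750.2, 1072 and 1834 CPM in THY-Tau22 males. The groups did not overlap, with a log2 difference of 1.29 ± 0.34 (edgeR adjusted p = 0.151). In this class 22.2% of all genes were higher without overlap. WT females lay at 1624, 1759 and 567 CPM, and THY-Tau22 females at 725, 506, 1156, 2001 and 644 CPM, a difference of -0.34 ± 0.29 (adjusted p = 0.998). The male minus female difference was 1.63 ± 0.45 (adjusted p = 0.118). The male difference passed the call without WT female replicate 2 (adjusted p = 0.044, with 0.403% of genes in the class called) or WT female replicate 3 (adjusted p = 0.0095, with 3.2% called). The comparison of the sexes passed it without THY-Tau22 female replicate 4 (1.95, adjusted p = 0.032, with 0.394% called) or WT female replicate 3 (1.93, adjusted p = 0.0010, with 14.8% called).

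In microglia-like cells, the brain's resident immune cells, Fth1 lay at 1262, 1922 and 1485 CPM in WT males and at 3430.1, 2543 and 4176 CPM in THY-Tau22 males, without overlap. The log2 difference was 1.03 ± 0.34 (edgeR adjusted p = 0.128), where 15.9% of genes were higher without overlap. The WT females were at 3729, 3310 and 1279 CPM, and THY-Tau22 females at 1656, 1716, 3085, 4841 and 1753 CPM. The female difference was -0.07 ± 0.30 (adjusted p = 1.00), and the male minus female difference was 1.10 ± 0.45 (adjusted p = 0.275). Without WT female replicate 3, both the male difference (1.03, adjusted p = 0.041) and the comparison of the sexes (1.41, adjusted p = 0.027) passed the call, as did 3.25% and 8.89% of genes in the class.

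In oligodendrocyte-like cells, the myelin-forming cells with the highest Fth1, WT males lay at 5416, 8071 and 6147 CPM and THY-Tau22 males at 14631, 11493 and 18077 CPM. The groups did not overlap, and the log2 difference was 0.96 ± 0.33 (edgeR adjusted p = 0.153), where 21.1% of genes were higher without overlap. In females, WT libraries lay at 16768, 17758 and 5147 CPM, and THY-Tau22 females at 7948, 7139.6, 13182, 18358 and 7616 CPM, a difference of -0.23 ± 0.29 (adjusted p = 1.00). The male minus female difference was 1.19 ± 0.44 (adjusted p = 0.193), and it passed the call without WT female replicate 3 (1.52, adjusted p = 0.0078), as did the male difference (0.95, adjusted p = 0.045). In that fit 10.8% and 2.46% of genes in the class were called.

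In endothelial-like cells, which line brain vessels, Fth1 lay at 428, 492.9 and 543 CPM in WT males and at 1013, 774 and 1594 CPM in THY-Tau22 males, again without overlap. The log2 difference was 1.03 ± 0.32 (edgeR adjusted p = 0.174), where 19.6% of genes were higher without overlap. Among females, WT lay at 979, 1489 and 487 CPM and THY-Tau22 females at 575, 569.6, 925, 1274 and 544 CPM, a difference of -0.31 ± 0.28 (adjusted p = 1.00). The difference between the sexes was 1.34 ± 0.43 (adjusted p = 0.218), and it passed the call without WT female replicate 3 (1.62, adjusted p = 0.011), as did 7.95% of genes in the class.

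Neuron-like cells are the class in which the Thy1.2 promoter drives the transgene. Their Fth1 lay at 705, 479.9 and 340.1 CPM in WT males and at 1788, 788 and 1771 CPM in THY-Tau22 males, from 27 to 168 UMIs per library. The groups did not overlap, and the log2 difference was 1.32 ± 0.48 (edgeR adjusted p = 0.472), where 8.38% of genes were higher without overlap. Female WT libraries lay at 1163, 3127 and 593 CPM and THY-Tau22 females at 747, 356, 684, 2295 and 470.4 CPM, a difference of -0.95 ± 0.44 (adjusted p = 0.998). The male minus female difference was 2.27 ± 0.65 (adjusted p = 0.478). In OPC-like cells the male difference was 0.84 ± 0.44 (adjusted p = 0.529) and the groups overlapped, where 12.8% of genes were higher without overlap. In females the Fth1 groups overlapped in all 6 classes. There, in the class order given above, 1.25%, 1.22%, 0.8%, 1.47%, 1.04% and 2.53% of genes were higher and 0.636%, 0.661%, 0.754%, 1.06%, 0.693% and 0.562% lower without overlap.

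**Figure D4:**
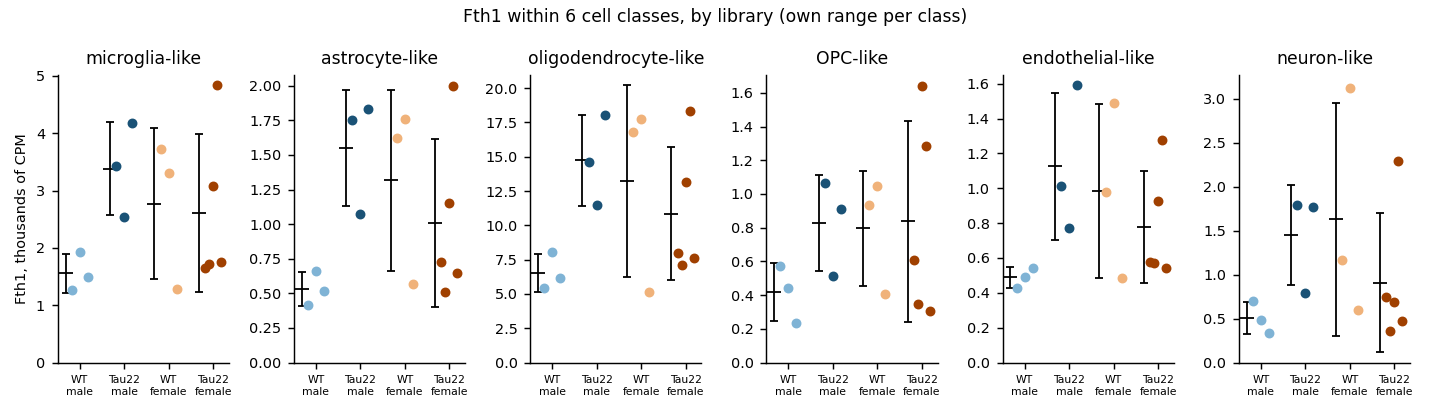
Fth1 CPM divided by 1000 (y axis, linear from 0, own range per class) in 6 cell classes and 4 groups, with 1 point per library and the mean and SD. In males the THY-Tau22 points lie above all WT points in 5 of the 6 classes, and in females the groups overlap in all 6.

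Fth1 shares sequence with a processed pseudogene. Of 441 windows of 60 bases, the length of the sequenced read, in the last 500 bases of the Fth1 transcript, 48 (10.9%) also occur in Gm6977, which held 7117 UMIs. The ratio of Fth1 to Gm6977 UMIs ranged from 5.22 to 16.8 in the libraries of the comparison. In the shared library, left out there, it was 45.4 under the WT label, the table used for class levels, and 17.5 under the THY-Tau22 label. With the Gm6977 UMIs added to Fth1, a choice made after seeing the data, the male log2 difference was 1.22 (edgeR adjusted p = 0.235).

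Ftl1 (chr7:45457944-45459884, minus strand) encodes the ferritin light chain, and its count is uncertain. Of the 441 windows in its last 500 bases, 335 (76.0%) also occur in 6 other genes, led by the pseudogene Ftl1-ps1, and it was counted only 734 times in 15 libraries. It lay at 106 ± 48.8 CPM in microglia-like cells (n = 15) and at 102 ± 71.7 in macrophage-like cells (n = 14), with microglia higher in 7 of 14 libraries, so these classes did not differ beyond their spread. The next class, fibroblast-like cells, lay at 49.4 ± 37.2 CPM (n = 9), and the astrocyte-like class at 7.96 ± 8.07 (n = 15). Microglia-like cells held 59.7% of the Ftl1 UMIs. An Ftl1 UMI was found in 5.57% of them (5.06% to 6.12%) and in 0.485% of astrocyte-like cells (0.314% to 0.715%), at median depths of 508 and 563 UMIs.

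Over all barcodes, Ftl1 lay at 21.5, 35.0 and 46.7 CPM in WT males and at 72.5, 55.0 and 47.3 CPM in THY-Tau22 males, from 39 to 76 UMIs per library. The lowest THY-Tau22 male and the highest WT male were almost level, and the log2 difference was 0.63 ± 0.40 (edgeR adjusted p = 0.441). WT females lay at 46.3, 87.0 and 20.0 CPM and THY-Tau22 females at 20.2, 34.6, 46.8, 63.5 and 26.7 CPM, a difference of -0.35 ± 0.36 (adjusted p = 1.00). In microglia-like cells, WT males lay at 57.1, 82.4 and 112 CPM and THY-Tau22 males at 185, 111 and 144 CPM, overlapping at 1 library. The log2 difference there was 0.76 ± 0.35 in males (edgeR adjusted p = 0.268) and, in the female comparison, -0.55 ± 0.32 (adjusted p = 1.00). The microglial comparison of the sexes (1.31 ± 0.47, adjusted p = 0.231) passed the call without WT female replicate 3 (1.67, adjusted p = 0.019), where 8.89% of genes did.

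Fth1 made up 97.4% to 99.2% of the ferritin UMIs of the libraries compared, so the heavy chain supplied nearly all counted ferritin transcripts, with the uncertainty of Ftl1 above. The share was 98.8 ± 0.346% in males with the transgene and 98.2 ± 0.685% in those without (mean ± SD, 3 libraries per genotype, with a two-sided exact permutation p of 0.30 where 0.10 is the lowest possible). The 5 THY-Tau22 females had 98.8 ± 0.313% and the 3 WT females 98.8 ± 0.397% (exact permutation p = 0.857, where 0.0179 is the lowest possible).

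Trf (chr9:103204001-103230444, minus strand) encodes transferrin, which oligodendrocytes make in the brain. It was counted 10886 times, and lay at 2133 ± 540 CPM in oligodendrocyte-like cells (n = 15), above macrophage-like cells in 14 of 14 libraries. Macrophage-like cells lay at 546 ± 200.2 CPM (n = 14) and microglia-like cells at 471 ± 116 (n = 15), and the first exceeded the second in 8 of 14 libraries, so these 2 did not differ beyond their spread. The means of all other classes lay at 175 CPM or below. Oligodendrocyte-like cells held 71.4% of the Trf UMIs and microglia-like cells 19.3%. A Trf UMI was found in 64.0% of oligodendrocyte-like cells (62.7% to 65.4%), 22.1% of microglia-like cells (21.1% to 23.0%) and 2.01% of endothelial-like cells (1.58% to 2.51%), at median depths of 587, 508 and 540 UMIs. In the last 500 bases of Trf, 157 of 441 windows (35.6%) also occur in Gm20425, an overlapping locus.

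Trf lay at 470.5, 462 and 373 CPM in WT males and at 923, 484 and 830.1 CPM in THY-Tau22 males over all barcodes. The lowest THY-Tau22 male lay just above the highest WT male, and the log2 difference was 0.59 ± 0.29 (edgeR adjusted p = 0.333). The WT females were at 608, 896 and 376 CPM and THY-Tau22 females at 800.01, 460.3, 379, 587 and 530.1 CPM, a difference of -0.12 ± 0.26 (adjusted p = 1.00). Within oligodendrocyte-like cells the male difference was 0.27 ± 0.26 (adjusted p = 0.615), with WT males at 2064, 1609 and 1549 CPM and THY-Tau22 males at 2698, 1688 and 2956 CPM. These ranges overlapped. The share of oligodendrocyte-like cells among all kept barcodes was 16.0% to 20.1% in WT males. It was 28.9%, 20.5% and 15.6% in THY-Tau22 male replicates 1 to 3. In replicate 3, 398 of the 1393 barcodes that make the denominator were in unnamed clusters, which lowers its share of every named class. The part of the oligodendrocyte-like share in the Trf values was not tested.

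Tfrc (chr16:32608920-32632794, plus strand), the transferrin receptor with the 4 elements shown above, was a gene of vessels. It lay at 422 ± 128 CPM in endothelial-like cells, at 183 ± 71.5 in mural-like cells and at 73.3 ± 23.4 in astrocyte-like cells (n = 15 each), and each exceeded the next in 15 of 15 libraries. Neuron-like cells followed at 58.3 ± 29.0 CPM, below astrocyte-like cells in 12 of 15 libraries. Endothelial-like cells held 56.2% of the 1949 Tfrc UMIs. A Tfrc UMI was found in 20.2% of them (18.9% to 21.5%), against 0.808% of microglia-like cells (0.616% to 1.04%).

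Over all barcodes, Tfrc lay at 110.1, 86.0 and 88.8 CPM in WT males and at 113, 117 and 128 CPM in THY-Tau22 males, separated by a narrow gap. The log2 difference was 0.13 ± 0.23 (edgeR adjusted p = 0.808), and it was -0.026 with the shared library kept as WT and -0.50 with ribosomal protein UMIs as the library size, a scaling that lowered the median of all genes to -0.62. In females, WT libraries lay at 136, 108 and 78.9 CPM and THY-Tau22 females at 68.6, 70.4, 114, 103 and 72.3 CPM, a difference of -0.30 ± 0.21 (adjusted p = 1.00). In endothelial-like cells, WT males lay at 395, 354 and 305 CPM and THY-Tau22 males at 465.5, 562 and 598 CPM, where 19.6% of genes were likewise separated in that direction. The log2 difference was 0.43 ± 0.26 (adjusted p = 0.421). The shared library, left out here, had 675 CPM under its WT label and 592 under its THY-Tau22 label, above the WT males in both tables.

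Slc40a1 (chr1:45908068-45926523, minus strand) encodes ferroportin, the iron exporter, and was highest in vessel and immune classes. Endothelial-like cells lay at 200.01 ± 49.4 CPM (n = 15), above macrophage-like cells, at 117 ± 120.3 (n = 14), in 11 of 14 libraries. Mural-like cells followed at 91.5 ± 66.6 and microglia-like cells at 86.5 ± 27.01 (n = 15 each), and macrophage-like, mural-like and microglia-like cells did not differ beyond their spread. Macrophage-like cells exceeded mural-like cells in 8 of 14 libraries. Mural-like cells exceeded microglia-like cells in only 4 of 15, against the order of their means. Microglia-like cells exceeded the next class, OPC-like cells at 12.2 ± 15.7 CPM, in 15 of 15 libraries. Oligodendrocyte-like cells, the class highest in Fth1, lay at 3.12 ± 3.25 CPM from 11 UMIs in 15 libraries. A Slc40a1 UMI was found in 11.3% of endothelial-like cells (10.3% to 12.4%) and 0.221% of oligodendrocyte-like cells (0.110% to 0.394%).

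Over all barcodes, Slc40a1 lay at 78.5, 59.1 and 77.4 CPM in WT males and at 47.7, 57.5 and 46.6 CPM in THY-Tau22 males. The groups did not overlap, by a narrow gap, and the log2 difference was -0.69 ± 0.24 (edgeR adjusted p = 0.248). Among females, WT lay at 87.3, 58.7 and 67.1 CPM and THY-Tau22 females at 62.7, 56.5, 47.5, 60.9 and 64.1 CPM, a difference of -0.27 ± 0.21 (adjusted p = 1.00). Over both sexes the difference was -0.48 ± 0.16 (adjusted p = 0.946), and the sexes differed by -0.42 ± 0.32 (adjusted p = 0.571). The shared library lay at 43.2 CPM under its WT label, below all WT males, and at 50.3 under its THY-Tau22 label. Kept as WT it gave a male difference of -0.52, and kept as THY-Tau22 one of -0.66.

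In microglia-like cells, Slc40a1 lay at 165, 90.2 and 70.3 CPM in WT males and at 83.9, 57.3 and 57.1 CPM in THY-Tau22 males, from 15 to 75 UMIs. The groups overlapped, and the log2 difference was -0.89 ± 0.33 (edgeR adjusted p = 0.170). WT male replicate 1 was the highest library, and without it the difference was -0.38. With ribosomal protein UMIs as the library size it was -1.62 and passed the call (adjusted p = 0.037), a scaling under which 14.9% of genes in the class were called, 747 of 751 of them lower, with a median of -0.73 over all 5028. Female WT libraries lay at 107, 72.0 and 92.1 CPM and THY-Tau22 females at 76.4, 104, 69.4, 100.4 and 90.2 CPM, a difference of -0.05 ± 0.30 (adjusted p = 1.00). In endothelial-like cells it was -0.32 ± 0.31 in males (edgeR adjusted p = 0.623) and -0.32 ± 0.27 in females (adjusted p = 1.00), with overlapping groups. Endothelial-like cells, the class highest in Slc40a1, made up 14.4% to 16.2% of all kept barcodes in WT males. The share was 13.3%, 13.2% and 9.26% in THY-Tau22 male replicates 1 to 3, without overlap. Replicate 3 had 398 of its 1393 barcodes in unnamed clusters, which lowers this share. Its part in the all-barcode Slc40a1 values was not tested.

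Slc11a2 (chr15:100387898-100425072, minus strand) encodes the endosomal iron transporter and was barely counted, with 247 UMIs in 15 libraries. Its class means ran from 9.43 CPM in OPC-like cells to 23.2 CPM in fibroblast-like cells, with 0 UMIs in many libraries of the smaller classes, and no order among them exceeded the spread. Over all barcodes it lay at 10.5, 12.5 and 13.7 CPM in WT males and at 12.4, 7.28 and 18.5 CPM in THY-Tau22 males. WT females lay at 17.2, 16.3 and 8.24 CPM and THY-Tau22 females at 12.4, 15.0, 15.4, 15.9 and 10.3 CPM, and the groups overlapped in both sexes. The log2 difference was -0.10 ± 0.37 in males (edgeR adjusted p = 0.921) and 0.05 ± 0.33 in females (adjusted p = 1.00). At 9 to 27 UMIs per library, a difference of this size was not detectable.

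Cp (chr3:19957054-20009145, plus strand), the copper oxidase that works with ferroportin, was highest in mural-like cells, the cells that wrap small vessels. It lay there at 592 ± 125 CPM and in endothelial-like cells at 337 ± 101 (n = 15 each), with the first higher in 15 of 15 libraries. Macrophage-like cells followed at 306 ± 289.9 CPM (n = 14) and fibroblast-like cells at 211 ± 238 (n = 9), neither apart from its neighbour beyond the spread, and OPC-like cells lay at 186 ± 54.8 (n = 15). Astrocyte-like cells lay at 5.25 ± 4.89 CPM (n = 15), from 16 of the 2094 Cp UMIs. A Cp UMI was found in 36.9% of mural-like cells (33.8% to 40.1%) and 0.291% of astrocyte-like cells (0.163% to 0.479%), with median depths of 770.0 and 563 UMIs.

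Over all barcodes, Cp lay at 106, 114 and 96.8 CPM in WT males and at 103, 156 and 88.4 CPM in THY-Tau22 males. The log2 difference was -0.04 ± 0.31 in males (edgeR adjusted p = 0.964) and 0.07 ± 0.28 in females (adjusted p = 1.00). Among females, WT lay at 176, 94.6 and 85.4 CPM and THY-Tau22 females at 92.1, 114, 149, 185 and 74.3 CPM. The groups overlapped in both sexes and in OPC-like and endothelial-like cells.

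Ireb2 (chr9:54863789-54912530, plus strand), which encodes iron regulatory protein 2, was counted 577 times, at 8.13 to 51.9 CPM by class. Neuron-like cells lay at 43.7 ± 25.2 CPM, microglia-like cells at 29.7 ± 11.8 and oligodendrocyte-like cells at 22.9 ± 10.4 (n = 15 each), and no neighbouring classes differed beyond their spread. WT males lay at 30.6, 43.0 and 27.3 CPM and THY-Tau22 males at 30.5, 38.0 and 31.5 CPM over all barcodes, a log2 difference of -0.19 ± 0.31 (edgeR adjusted p = 0.786). In females, WT libraries lay at 23.8, 18.5 and 35.3 CPM and THY-Tau22 females at 28.7, 23.1, 19.6, 27.8 and 34.3 CPM, a difference of -0.0027 ± 0.28 (adjusted p = 1.00). The groups overlapped in both sexes, and with 17 to 67 UMIs per library small differences were not detectable.

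To take the share of each class out of the all-barcode level, the CPM of the 6 larger classes was averaged with equal weights in every library. In males, Fth1 then lay at 3846 ± 936 CPM in THY-Tau22 and 1674 ± 295 in WT (SD over 3 libraries of each genotype, with 0.10 as the two-sided exact permutation p and as its lowest possible value). Ftl1 lay at 43.3 ± 4.14 and 25.2 ± 9.09, Tfrc at 129.9 ± 13.3 and 83.4 ± 4.23, and Slc40a1 at 48.5 ± 5.24 and 58.0 ± 1.29, each at the same exact permutation p of 0.10. Trf lay at 543 ± 136 and 395 ± 79.5 (exact permutation p = 0.20). Slc11a2, Cp and Ireb2 had exact p of 0.50 to 0.80 in males, and in females the exact p of all 8 members ran from 0.25 to 0.964. The share of all genes separated on this measure, which used no TMM scaling, was not computed. Within single classes, 8.38% (neuron-like) to 22.2% (astrocyte-like) of all tested genes were higher without overlap in THY-Tau22 males.

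Fth1 moved with a measure of the whole library. The mitochondrial ribosomal RNAs mt-Rnr1 and mt-Rnr2 took 17.1% to 23.0% of the UMIs in WT males and 11.3% to 13.2% in THY-Tau22 males, without overlap, and 4.66% to 23.1% in WT females and 7.19% to 19.8% in THY-Tau22 females. Ribosomal protein genes took 0.947% to 1.17% in WT males and 1.60% to 2.04% in THY-Tau22 males. Over 15 libraries, Fth1 CPM and the mitochondrial rRNA share had Pearson's r of -0.93 and Spearman's rho of -0.93 (permutation p = 1e-05 each, the smallest the resamples can give, and adjusted p = 0.00012 and 0.00024 over 24 relations of the 8 members with 3 library measures). Without the 2 libraries farthest from the median share, r was -0.95. It was -0.96 in 7 male and -0.94 in 8 female libraries, -0.93 in 7 WT and -0.94 in 8 THY-Tau22 libraries, -0.91 without the MB22 libraries, and -0.91 with the rRNA taken out of the CPM total.

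**Figure D5:**
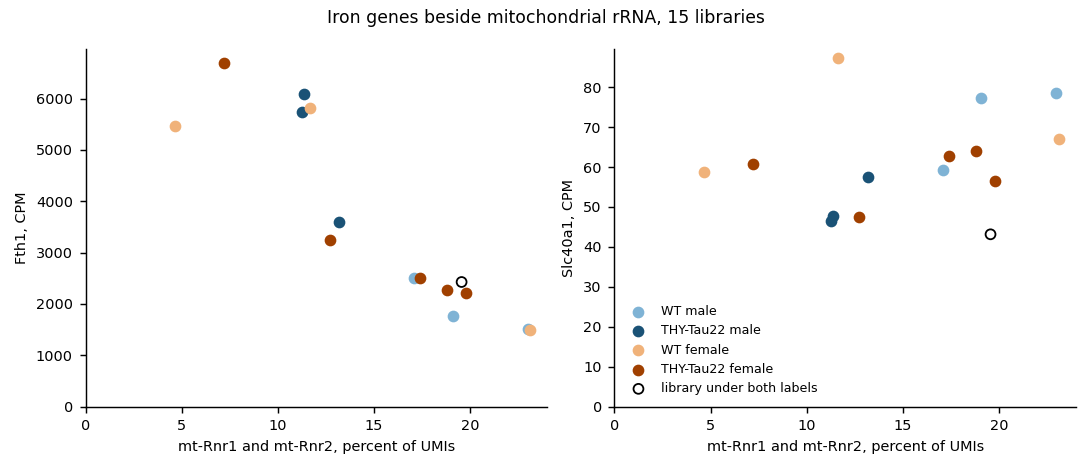
CPM of Fth1 and Slc40a1 over all kept barcodes (y axes, from 0) against the percent of UMIs from mt-Rnr1 and mt-Rnr2 (x axes), with 1 point for each of 15 libraries coloured by group and the library found under both labels as an open circle. Fth1 lies at 5466.5 CPM or more in the 5 libraries with a share of 11.6% or less and at 1491 CPM in the library with 23.1%, and Slc40a1 shows no such order.

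The same relation held for Fth1 within each class, with r from -0.95 in oligodendrocyte-like cells to -0.75 in OPC-like cells. Ftl1 had r of -0.85 and rho of -0.85 (permutation p = 8e-05 and 0.00017, adjusted p = 0.00064 and 0.0014), and r of -0.77 without the 2 farthest libraries. Trf had r of -0.62 and rho of -0.69 (permutation p = 0.014 and 0.0053, adjusted p = 0.057 and 0.021), and r of -0.55 without them. The other 5 members had adjusted permutation p above 0.05 by both measures, with Slc40a1 at r of 0.25 and rho of 0.29 (permutation p = 0.374 and 0.290, adjusted p = 0.472 and 0.410). The relation was not particular to mitochondrial rRNA. With the ribosomal protein share, r was 0.90 for Fth1, 0.80 for Ftl1 and 0.77 for Trf (adjusted permutation p = 0.00012, 0.0024 and 0.0054). How many of all genes relate to either share this strongly was not counted, so these relations are not shown to be particular to iron genes. When the mitochondrial rRNA share was added to the edgeR model as a covariate, a choice made after seeing the data, the male Fth1 difference was 0.44 ± 0.25 (adjusted p = 0.986) and the male minus female difference 0.48 ± 0.32 (adjusted p = 0.997). The Slc40a1 difference over both sexes was -0.39 ± 0.15 (adjusted p = 1.00), and in males -0.48 ± 0.24 (adjusted p = 0.986). Within classes, the male Fth1 difference with the covariate was largest in astrocyte-like cells, at 0.57 ± 0.23 (edgeR adjusted p = 0.937). It was 0.40 in endothelial-like, 0.37 in neuron-like, 0.32 in microglia-like, 0.25 in oligodendrocyte-like and 0.03 in OPC-like cells. The male minus female Fth1 difference ran from -0.13 in OPC-like to 1.07 in neuron-like cells. Over all barcodes no member and no other gene was called with the covariate (0%), as without it. The covariate lowered the differences of many genes. At an unadjusted p under 0.05 by edgeR, 455 of 11643 genes passed in males with it, against 1792 without it. Between the sexes 387 passed with it, against 1482. Among the males the rRNA share and the genotype cannot be told apart.

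The wider iron pathway was covered by 5 lists with 58 genes, of which 35 were tested over all barcodes and 0 were called. In males, 25 of 35 had a log2 difference above 0, with a median of 0.40, where 51.2% of all genes lay above 0 with a median of 0.01. At an unadjusted p under 0.05, 6 passed, all higher in THY-Tau22, against the 9.04% of all genes given above. They were 4 of 18 genes for mitochondrial iron and iron-sulfur clusters, 1 of 4 tested genes of heme breakdown and 1 of 3 of ferritin turnover and iron chaperones. None of the 4 tested iron regulators and 6 tested genes of iron transport and reduction passed. In females, 17 of 35 lay above 0, against 47.9% of all genes, and 0 had an unadjusted p under 0.05.

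The 3 list genes with the smallest p in males were Pcbp2, an RNA-binding protein that also delivers iron to ferritin, Iscu, the scaffold on which iron-sulfur clusters are built, and Fdx1, a mitochondrial ferredoxin. Pcbp2 lay at 106 to 170.3 CPM in WT males and 253 to 311 in THY-Tau22 males, a log2 difference of 0.91 ± 0.26 (edgeR adjusted p = 0.228). Iscu lay at 18.7 to 25.1 and 46.9 to 63.1 CPM (1.10 ± 0.34, adjusted p = 0.234), and Fdx1 at 4.55 to 13.4 and 19.4 to 32.9 CPM (1.10 ± 0.39, adjusted p = 0.258). In WT female replicates 1 to 3, Pcbp2 lay at 279, 243 and 116 CPM. Iscu lay there at 56.9, 83.8 and 21.2 CPM, and Fdx1 at 30.4, 23.9 and 9.42 CPM. The mitochondrial rRNA shares of these libraries were 11.6%, 4.66% and 23.1%. THY-Tau22 females lay at 157 to 250, 24.2 to 58.2 and 10.4 to 18.3 CPM for the 3 genes in that order. The relation of these genes to the rRNA share was not tested. In females the smallest p belonged to Slc25a28, a mitochondrial iron importer (-0.48 ± 0.30), and Slc39a14, a metal importer (-0.66 ± 0.42), each with an adjusted p of 1.00.

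The genes most like each member were ranked by Pearson's correlation of log2(CPM + 10) over the means of 10 classes, among 7885 genes that reached 50 CPM in a class. These correlations describe 10 points from the same libraries and carry no p. For Fth1 the closest was its own pseudogene Gm6977 (0.98), followed by Gm1848 (0.88) and Cd82 (0.87), all highest in oligodendrocyte-like cells. For Ftl1 they were Gm7027, Gm8276 and Rpl6 (each 0.97), and for Trf the oligodendrocyte-high genes Bin1 (0.91), Fam134b (0.90) and Rhog (0.89). Tfrc was nearest to the endothelial-high genes Vwa1 (0.95), Lef1 (0.93) and Nxpe4 (0.93), and Slc40a1 to Grap (0.98), H2-Q4 (0.98) and H2-Q7 (0.97). Cp was nearest to Svil (0.92), Tagln2 (0.90) and Ccny (0.90). Slc11a2 was nearest to Ahcyl2 (0.88), Npr3 (0.83) and Fzd7 (0.82), and Ireb2 to Ndfip1 (0.96), Tcf20 (0.93) and Atp6v0d1 (0.91), each from few UMIs.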

How the data were processed

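Cells of the whole neocortex of 1 hemisphere from PBS-perfused mice were dissociated with an adult brain kit, captured by Drop-seq and sequenced with 60-base transcript reads. The authors deposited, for each library, UMI counts per gene and barcode, made on the mm10 build per the submitters' processing notes. The version of the counting pipeline and its annotation are not given in the sources used here. The 8 members and the gene lists were chosen with earlier results of these data known.

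Barcodes with 200 to 7000 detected genes were kept. Cells were clustered with scanpy 1.11.5 and leidenalg 0.10.2 (2500 variable genes without the members and iron lists, 19 components, 20 neighbours, resolution 0.5), and a cluster was named when at least 3 markers of a list were enriched. Scrublet marked 1473 barcodes (5.16%) as doublets, which were kept in the main analysis. UMIs were summed per library and class, for libraries with at least 10 cells of the class, so that the mouse and not the cell was the replicate. Summed counts were tested with edgeR 4.0.16 (quasi-likelihood, TMM, 4 groups in 1 model) in R 4.3.3 over all genes that passed edgeR's filter on low counts, with Benjamini-Hochberg adjustment. The male comparison was also run on simulated data. A log2 difference of 1 was recovered for 26% of genes over all barcodes, and for 12% (neuron-like) to 28% (OPC-like and endothelial-like) by class. A log2 difference of 2 was recovered for 93% over all barcodes and for 67% (neuron-like) to 91% (microglia-like) by class. A gene that was not called can therefore differ 2-fold. Values of single quantities were compared by two-sided exact permutation tests, and correlations by 100000 permutations, in SciPy 1.17.1. Shares of cells carry 95% Clopper-Pearson intervals, which cover counting error only. Class levels are a description without a test.

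Beyond the members, the text names the 3 genes of the iron lists with the smallest p in each sex, and the 3 genes most like each member. Of the genes this rule names in females, 1 is not reported here. Alternatives were DESeq2 1.42.0, no TMM, ribosomal protein UMIs as library size, no filter, other uses of the shared library, no MB22 libraries, stricter cell filters, no doublets, resolution 1, other class weights, and each library left out in turn. A mitochondrial rRNA covariate and the addition of genes that share sequence were chosen after seeing the data. Replicate numbers followed the order of deposit and paired no samples. The mice came from different litters, which were not modelled. Apart from the animal number repeated in the titles of a THY-Tau22 female and a WT male, the labels gave 1 library per mouse. The p-values therefore measure the spread between libraries, in which mouse and preparation are joined.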

Additional observations from a re-analysis of the deposited data

Results flagged for a closer look

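The THY-Tau22 females, with 5 libraries, were the only group large enough for Dixon's test. Of 27 sets of their values examined, 5 held a library whose gap to its nearest neighbour passed the 95% limit, where chance gives about 1 in 20. Fth1 over all barcodes was 6698 CPM in replicate 4, against 3246 in the next library. Fth1 in neuron-like cells was 2295 CPM in the same replicate, against 747. Ireb2 in microglia-like cells was 52.6 CPM, also in replicate 4, against 28.3, from 11 UMIs in each library. Trf in oligodendrocyte-like cells was 2967 CPM in replicate 1, against 2015. Cp in OPC-like cells was 327 CPM in replicate 2, against 196, from 17 and 21 UMIs.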

How the results depend on the processing

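No paired analysis was possible because the replicate numbers follow the order of deposit and pair no animals. Of 1324 values under alternatives, 1227 kept direction and call status, 25 gained a call, 59 changed sign and 13 counts or values moved. No member or pair was called in the main analysis, so none could lose a call. The male Fth1 difference ran from 1.06 to 1.44 and that of Slc40a1 from -0.83 to -0.59 with each library left out.

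Over all barcodes, 1 member was called in males and 1 in the comparison of the sexes without the filter on low counts, and 1 in the comparison of the sexes without the MB22 libraries. Of the pairs of a member and a class, 1 was called in males with ribosomal protein scaling, 2 in males and 1 between the sexes without the filter, and 3 and 4 without the MB22 libraries. The classes of these pairs had many calls among all genes. With ribosomal scaling they were 751 of 5028 (microglia-like). Without the filter, males had 99 of 21276 (microglia-like) and 37 of 20822 (astrocyte-like), and the sexes differed in 54 of 20822 (astrocyte-like). Without the MB22 libraries, males had 164 of 5106 (microglia-like), 99 of 4435 (astrocyte-like) and 62 of 3647 (endothelial-like), and the sexes differed in 269, 467 and 185 in these classes and in 323 of 4335 (oligodendrocyte-like). With each library left out, these counts ran from 0 to 3 pairs in males, from 0 to 5 pairs between the sexes, and from 0 to 1 member between the sexes. Without WT female replicate 3, 71 of all genes were called in males and 1142 between the sexes. Between the sexes, 182 were called without the filter and 711 without the MB22 libraries, against 0. In males, other settings called 295 (no filter), 88 (no MB22 libraries), 15 (DESeq2) and 3 (shared library as WT), against 0.

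Male log2 differences changed sign with ribosomal protein scaling in Ftl1 (-0.035; microglia-like cells -0.0036), Trf (-0.067) and Tfrc (-0.50), a scaling that put the median of all genes at -0.62. With the rRNA covariate they changed sign in Ftl1 (-0.11), Tfrc (-0.015) and Ireb2 (0.18), with at least 500 genes per barcode in Tfrc (-0.12) and Ireb2 (0.28), with the shared library as WT in Tfrc (-0.026) and Cp (0.036), with it as THY-Tau22 in Slc11a2 (0.0044), and without TMM in Slc11a2 (0.10) and Cp (0.13). Female differences changed sign in Trf with ribosomal protein scaling (0.080), in Slc11a2 without the MB22 libraries (-0.092), and in Ireb2 with DESeq2 (0.00054), no TMM (0.017), ribosomal protein scaling (0.0018), no filter (0.034) and no MB22 libraries (0.34). Weighted by mean share, the class-standardised CPM difference was 0.804 for Slc11a2 in males and -0.332 for Ireb2 in females. The cause was not tested.

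With each library left out, the signs also varied in female Fth1 (-0.65 to 0.038), Ftl1 (-0.73 to 0.20), Trf (-0.32 to 0.13) and Ireb2 (-0.26 to 0.48), in Slc11a2 (males -0.44 to 0.17, females -0.19 to 0.22) and in Cp (males -0.33 to 0.15, females -0.12 to 0.43). The Fth1 share of ferritin in females ranged from -0.116 to 0.272 percentage points. Standardised CPM differences in females ran from -1642 to 25.3 for Fth1, -17.4 to 4.15 for Ftl1, -148 to 69.2 for Trf, -24.6 to 1.13 for Tfrc, -7.32 to 0.0059 for Slc11a2, -9.29 to 19.2 for Cp and -5.15 to 5.59 for Ireb2, and in males from -6.38 to 0.026 for Slc11a2, -2.61 to 20.6 for Cp and -4.15 to 2.53 for Ireb2.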
